A study of Mus musculus with 8 samples.

Results

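The antioxidant and NRF2 target genes described here are 10 genes that remove reactive oxygen species or are switched on with the transcription factor NRF2, compared in the brown adipose tissue (BAT) of mice between thoracic aortic constriction (TAC) and a sham operation (Sham). They were taken as the genes Nfe2l2, Nqo1, Hmox1, Gclc, Gclm, Txnrd1, Sod1, Sod2, Cat and Prdx3, with every probe of the array whose RefSeq transcript belongs to one of them, which gave 12 probes of 55681 and 10 genes of the 21154 that could be named. Gene expression was measured with one-colour Agilent arrays, on which the brightness of a spot measures the amount of one transcript. The mice were males of the strain C57BL/6NCrSlc on normal chow, operated on at 11 weeks of age. TAC narrows the aorta by a surgical constriction and loads the left ventricle with pressure, while Sham mice had the operation without it, and no other treatment or transgene is named for either group. By the labels each group held 4 mice with 1 array each. The time after surgery is 2 weeks in the source name and the protocol, in keeping with an age of 13 weeks at collection, and 4 weeks in the description, and nothing read here decides between them.

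NRF2, the product of Nfe2l2, is held in the cytoplasm by KEAP1, which has it degraded, and is released when electrophiles or oxidants modify KEAP1. In the nucleus it pairs with small MAF proteins and binds antioxidant response elements in front of genes for glutathione synthesis, the thioredoxin cycle, quinone reduction and haem breakdown. BAT burns fatty acids in mitochondria that are uncoupled by UCP1, so superoxide dismutases, catalase and peroxiredoxins stand close to its main source of oxidants.

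The start regions of the members were read from RefSeq (GRCm38.p6), from 250 bases before to 50 bases after each annotated start. Of the 10 members 8 were matched, with 10 windows, since Txnrd1 had 3. Hmox1 and Gclc are named only. The core of the antioxidant response element was searched on both strands as TGACNNNGC. It was present in 4 of the 10 member windows, those of Nfe2l2, Gclm and Sod1 and 1 of the 3 of Txnrd1. Of the 32851 windows of all genes, 12.4% held it. The GC box GGGCGG was present in 8 of the 10 member windows, at least 1 of each matched member, and in 35.7% of all windows. The GC content of the member windows was 48.0% to 79.7%, and the median of all windows was 52.7%. None of the member windows held the AP-1 element TGACTCA, the cyclic AMP element TGACGTCA or the E-box CACGTG, which were present in 5.2%, 1.79% and 7.15% of all windows. A match is a description of the letters in a window and not a measured binding site. Since Nfe2l2, Gclm, Sod2, Cat and Prdx3 are the members with an unadjusted p under 0.05 in the comparison described further on, the 250 bases in front of their starts are given 5′ to 3′ on the strand of the gene, with both motifs in capitals. The motifs do not overlap each other in these stretches.
Nfe2l2, chr2:75704664-75704913, minus strand: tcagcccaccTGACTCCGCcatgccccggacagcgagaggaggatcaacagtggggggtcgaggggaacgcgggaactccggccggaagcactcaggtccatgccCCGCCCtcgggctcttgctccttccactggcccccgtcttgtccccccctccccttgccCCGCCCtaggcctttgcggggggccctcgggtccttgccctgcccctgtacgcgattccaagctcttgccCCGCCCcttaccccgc
Gclm, chr3:122245307-122245556, plus strand: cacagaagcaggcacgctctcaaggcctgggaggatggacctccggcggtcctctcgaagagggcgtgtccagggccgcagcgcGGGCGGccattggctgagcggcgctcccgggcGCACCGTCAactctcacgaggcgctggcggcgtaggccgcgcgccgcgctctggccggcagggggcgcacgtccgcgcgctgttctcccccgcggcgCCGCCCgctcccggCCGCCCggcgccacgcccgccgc
Sod2, chr17:13007589-13007838, plus strand: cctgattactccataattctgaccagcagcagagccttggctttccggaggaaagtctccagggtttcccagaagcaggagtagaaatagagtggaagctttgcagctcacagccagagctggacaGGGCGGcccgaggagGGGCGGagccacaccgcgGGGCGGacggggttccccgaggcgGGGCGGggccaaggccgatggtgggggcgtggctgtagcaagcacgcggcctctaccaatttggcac
Cat, chr2:103485154-103485403, minus strand: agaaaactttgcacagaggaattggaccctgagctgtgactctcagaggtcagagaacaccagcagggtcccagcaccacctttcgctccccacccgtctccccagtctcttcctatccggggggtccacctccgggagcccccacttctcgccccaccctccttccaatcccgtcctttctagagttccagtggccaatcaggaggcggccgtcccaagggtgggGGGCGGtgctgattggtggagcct
Prdx3, chr19:60874539-60874788, minus strand: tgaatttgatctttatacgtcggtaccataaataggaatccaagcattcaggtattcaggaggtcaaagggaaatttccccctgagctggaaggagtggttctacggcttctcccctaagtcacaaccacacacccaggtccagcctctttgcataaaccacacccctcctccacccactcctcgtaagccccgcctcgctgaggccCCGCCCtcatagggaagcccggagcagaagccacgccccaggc
The response element core of Nfe2l2 began 240 bases before the start, and in Gclm it began 134 bases before the start on the opposite strand. Sod2, Cat and Prdx3 had GC boxes and no such core in this window.

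The values below are log2 intensities relative to the 75th percentile of the probes of the same array. They compare arrays for 1 probe, and the levels of different probes are not comparable. Scanner files were used for 7 arrays (3 Sham arrays, replicates 2 to 4, and all 4 TAC arrays), while Sham replicate 1 was read from the authors' table of all 8 arrays. For the member probes the scanner values and this table differed by at most 0.011 on the log2 scale. All 12 member probes were well above background on all 7 arrays, so none of them entered the test through 1 group alone. The 7 arrays shared 1 slide, Sham in its first row and TAC in its second, and row and operation cannot be told apart. In whole tissue, fewer cells of a type and less RNA per cell cannot be told apart either. The tissue carried its defining markers, since all 12 brown adipocyte markers were well above background on the 7 arrays, from Prdm16 at a mean of 0.10 to Cidea at a mean of 10.6. TAC replicate 1 stood apart from the other arrays, at 89.5 on a first principal component that held 39.3% of the variance, against -8.33 to 4.07 for the other TAC arrays and -32.6 to -20.9 for Sham. Member values are given also without it where that turned a difference or moved it by more than 1.5 times, and for some other members. None of the 19 pathway genes named by the rule moved by that much without it.

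No member passed an adjusted p of 0.05 with limma, and neither did any of the 33359 probes tested (0%), the smallest adjusted p being 0.0547. Of the 10 members, 5 were lower after TAC at an unadjusted p under 0.05 (Prdx3, Sod2, Cat, Gclm and Nfe2l2) and 0 were higher, against 9.37% of the 14989 genes tested that were lower and 3.44% that were higher. The Sham and TAC arrays did not overlap for 4 of these, Prdx3, Sod2, Cat and Gclm, all lower after TAC, against 12.5% of all genes lower and 4.74% higher without overlap. The median log2 difference of the members was -0.23, and that of all genes tested was -0.04. These counts depended on which arrays were used. With Sham replicate 1 added from the authors' table, 3 members were lower at an unadjusted p under 0.05 (Gclm, Cat and Prdx3) against 8.89% of all genes, the median was -0.16, and 1 member, Gclm, had no overlap, against 6.51% of all genes lower and 3.22% higher without overlap. Without TAC replicate 1, 4 members were lower at an unadjusted p under 0.05, against 9.43% of all genes. With both changes together 1 of 10 was, Gclm, against 8.15% of all genes, which is near that share, and the members' median was -0.12. Without Sham replicate 3 the members lower at this level were 2, Sod2 and Prdx3, and the share of all genes was 4.76%.

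**Figure D1:**
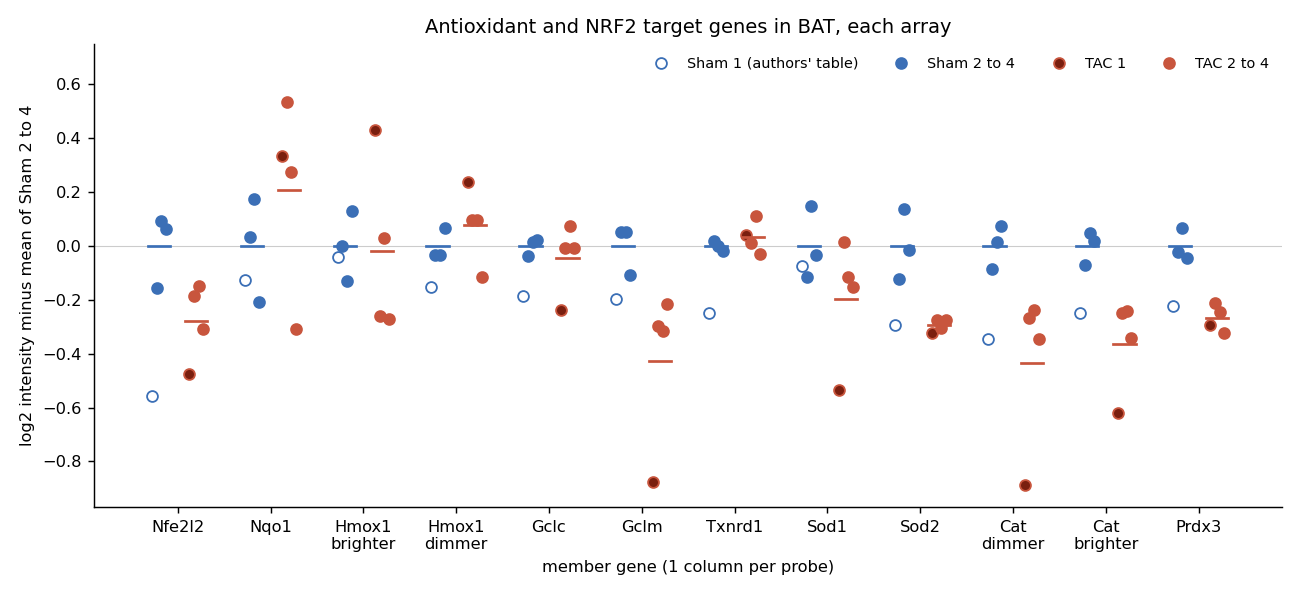
Log2 intensity of each member probe on each array (y axis) minus the mean of Sham replicates 2 to 4 for that probe, with 1 column per probe. Blue points are Sham and red points TAC, the open point is Sham replicate 1 from the authors' table, the dark point is TAC replicate 1, and the bars are the means of Sham 2 to 4 and of the 4 TAC arrays. For Prdx3, Sod2, Cat and Gclm every TAC point lies below Sham 2 to 4. Sham 1 lies near or among the TAC points for each of these genes, and for Gclm just above all of them.

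Nfe2l2 encodes NRF2 itself. Its probe stood at 3.57, 3.82 and 3.79 on Sham replicates 2, 3 and 4, at 3.25, 3.54, 3.58 and 3.42 on TAC replicates 1 to 4, and at 3.17 on Sham replicate 1. The TAC arrays were at or below the lowest of Sham 2 to 4 except TAC replicate 3, which lay just above it, and Sham 1 lay below every TAC array. The log2 difference of TAC minus Sham was -0.28 ± 0.11 (SE, 95% interval -0.55 to -0.01, limma adjusted p = 0.358). With Sham 1 the difference was -0.14, with an interval of -0.50 to 0.22, and without TAC 1 as well it was -0.08.

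Nqo1, a reductase that turns quinones into hydroquinones in a single step, had a dim probe that was nevertheless well above background on every array. It stood at -3.27, -3.13 and -3.51 on Sham 2 to 4, at -3.43 on Sham 1, and at -2.97, -2.77, -3.03 and -3.61 on TAC 1 to 4. The first 3 TAC arrays were above every Sham array and TAC 4 was below every Sham array. The difference was 0.21 ± 0.21 (SE, limma adjusted p = 0.674), 0.06 with another background correction and 0.38 without TAC 4.

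Hmox1, the stress-induced haem oxygenase, which splits haem into biliverdin, iron and carbon monoxide, had 2 probes. The brighter one stood at 1.1, 0.97 and 1.23 on Sham 2 to 4, at 1.06 on Sham 1 and at 1.53, 0.84, 1.13 and 0.83 on TAC 1 to 4. The TAC arrays lay on both sides of Sham, with TAC 1 the highest of all 8 arrays and TAC 2 and 4 the lowest. The difference was -0.02 ± 0.19 (SE, limma adjusted p = 0.980), with a ratio of TAC to Sham of 0.989 and a 95% interval of 0.731 to 1.34 that spans lower and higher values. Without TAC 1 it was -0.17. The dimmer probe differed by 0.08 between the groups (limma adjusted p = 0.754), and again TAC 1 was the highest array, at -0.51.

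Gclc and Gclm are the catalytic and the modifier subunit of glutamate-cysteine ligase, the rate-limiting enzyme of glutathione synthesis. Gclc stood at 2.24, 2.29 and 2.30 on Sham 2 to 4, at 2.09 on Sham 1, and at 2.04, 2.27, 2.35 and 2.27 on TAC 1 to 4. TAC 1 and Sham 1 were the lowest arrays and the other 6 lay close together. Its difference was -0.04 ± 0.10 (SE, limma adjusted p = 0.864), with a ratio interval of 0.828 to 1.14, and was 0.02 without TAC 1. Gclm stood at -0.02, -0.02 and -0.18 on Sham 2 to 4, at -0.27 on Sham 1, and at -0.95, -0.37, -0.39 and -0.29 on TAC 1 to 4. All 4 TAC arrays were below all 4 Sham arrays, by a narrow gap for TAC 4 and by a wide one for TAC 1. The difference was -0.43 ± 0.17 (SE, 95% interval -0.83 to -0.03, limma adjusted p = 0.353), and -0.28 without TAC 1. With 8 arrays it was -0.38. Whether the difference of Gclm departs from that of Gclc was not tested.

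Txnrd1 encodes the cytosolic thioredoxin reductase, which passes electrons from NADPH to thioredoxin. It stood at 3.57, 3.55 and 3.53 on Sham 2 to 4 and at 3.59, 3.56, 3.66 and 3.52 on TAC 1 to 4, and Sham 1 was at 3.30, below all others. The 7 scanner arrays lay within a narrow band and overlapped. The difference was 0.03 ± 0.07 (SE, limma adjusted p = 0.873), and its 95% interval as a ratio was 0.905 to 1.15.

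Sod1 and Sod2 turn superoxide into hydrogen peroxide, the first in the cytosol and the second in the mitochondrial matrix. Sod1 stood at 8.19, 8.45 and 8.27 on Sham 2 to 4, at 8.23 on Sham 1, and at 7.77, 8.32, 8.19 and 8.15 on TAC 1 to 4. Apart from TAC 1, the lowest array, the groups overlapped. The difference was -0.20 ± 0.15 (SE, limma adjusted p = 0.577), and -0.08 without TAC 1. Sod2 stood at 8.82, 9.08 and 8.93 on Sham 2 to 4 and at 8.62, 8.67, 8.64 and 8.67 on TAC 1 to 4. The 4 TAC arrays lay close together and below these Sham arrays, while Sham 1 was at 8.65, among the TAC arrays. The difference was -0.29 ± 0.09 (SE, 95% interval -0.50 to -0.08, limma adjusted p = 0.275), which is 0.818 of the Sham intensity, and was -0.28 without TAC 1. With Sham 1 it was -0.22, with an interval of -0.45 to 0.01.

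Cat and Prdx3 remove the peroxide, catalase mostly in peroxisomes and peroxiredoxin 3 in mitochondria. Cat had 2 probes, both lower after TAC. The brighter one stood at 3.81, 3.93 and 3.90 on Sham 2 to 4, at 3.63 on Sham 1, and at 3.26, 3.63, 3.64 and 3.54 on TAC 1 to 4. The TAC arrays lay below Sham 2 to 4, and Sham 1 was level with TAC 2 and 3. Its difference was -0.36 ± 0.11 (SE, 95% interval -0.63 to -0.09, limma adjusted p = 0.288), -0.30 with Sham 1 and -0.28 without TAC 1. The dimmer probe stood at 2.37, 2.47 and 2.53 on Sham 2 to 4, at 2.11 on Sham 1, and at 1.57, 2.19, 2.22 and 2.11 on TAC 1 to 4. Again the TAC arrays lay below Sham 2 to 4, with Sham 1 level with TAC 4, and the difference was -0.43 ± 0.17 (SE, limma adjusted p = 0.352).

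Prdx3 was spotted 10 times on each array. It stood at 5.71, 5.80 and 5.69 on Sham 2 to 4, at 5.51 on Sham 1, and at 5.44, 5.52, 5.49 and 5.41 on TAC 1 to 4. The SD between its 10 spots, a technical error that leaves out the spread between mice, was 0.020 to 0.036 on each array. The TAC arrays lay below Sham 2 to 4, and Sham 1 lay among the TAC arrays. The difference was -0.27 ± 0.08 (SE, 95% interval -0.45 to -0.09, limma adjusted p = 0.260), the smallest adjusted p of the members, and -0.21 with Sham 1 (interval -0.40 to -0.02).

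**Figure D2:**
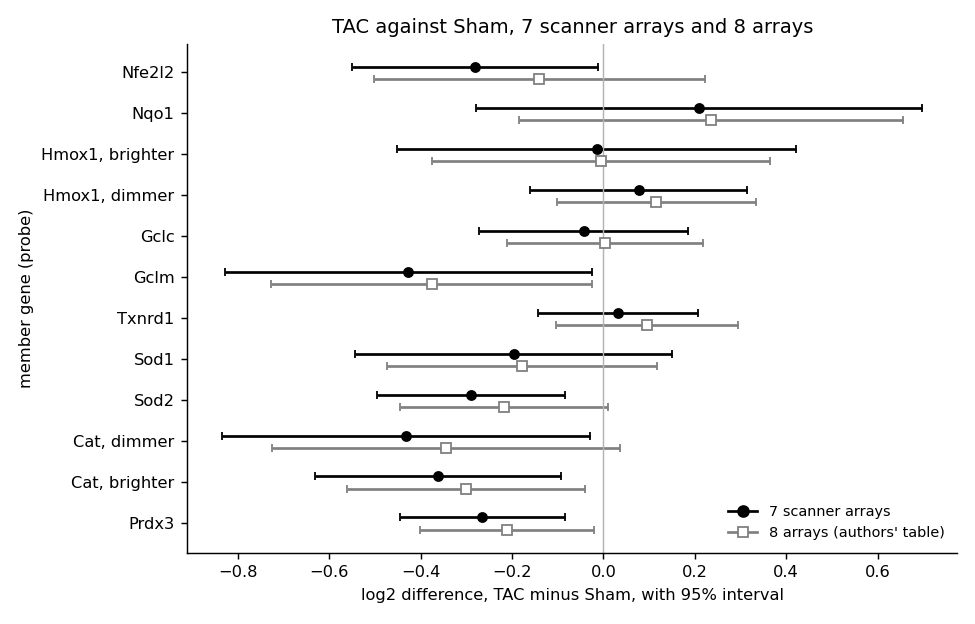
Log2 difference of TAC minus Sham for each member probe (x axis) with its 95% interval from limma. Black points use the 7 scanner arrays and grey squares the authors' table of 8 arrays. The intervals of Prdx3, Gclm and the brighter Cat probe lie below 0 with both sets of arrays, those of Sod2, Nfe2l2 and the dimmer Cat probe with 7 arrays, and none of these passes adjustment over all probes.

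Sham replicate 1 lay below Sham 2 to 4 for 7 of the 10 members (Nfe2l2, Gclc, Gclm, Txnrd1, Sod2, Cat and Prdx3) and above them for 0, against 36.3% and 22.0% of all genes tested. Relative to the mean of Sham 2 to 4, the mean of the members was -0.22 on Sham 1, and -0.26, -0.09, -0.09 and -0.22 on TAC 1 to 4, so Sham 1 was as low as TAC 4 and only TAC 1 was lower. Across the 7 scanner arrays the members varied together to different degrees, which is a description over few arrays of 2 groups that share their scaling. Nfe2l2 and Cat had a Pearson r of 0.96, and 0.93 without TAC 1. Sod2 and Prdx3 had an r of 0.93, and 0.92 without TAC 1. Cat had an r of 0.84 with Sod2 and 0.88 with Prdx3, and of 0.93 and 0.97 without TAC 1. Hmox1 and Sod1 had an r of -0.73 that was -0.10 without TAC 1.

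Outside the members, the genes whose pattern over the 7 arrays was most like that of Nfe2l2 among 14974 genes were Bcl3 (r = 0.993), C9orf72 (r = 0.993) and Bud31 (r = 0.992), and without the 2 arrays farthest from the median, TAC 1 and Sham 3, their r was 0.986, 0.977 and 0.987. Their own log2 differences were -0.90, -0.54 and -0.42. For Hmox1 they were Klf8 (r = 0.990), Crem (r = 0.985) and Trpc6 (r = 0.985), with differences of 0.02, 0.00 and -0.05. These likenesses were picked as the highest of many over 7 arrays.

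The wider pathway was read from 7 lists with 72 genes tested, of which 20 were lower and 3 higher at an unadjusted p under 0.05 and 0 passed the adjusted threshold (smallest adjusted p 0.169). Of all genes tested, 9.37% were lower and 3.44% higher at this level, and the counts of each list below stand against these shares. The list of NRF2 regulators, whose genes do not all act on NRF2 in the same direction, had a median log2 difference of -0.08. At an unadjusted p under 0.05, 3 of 9 were lower and 0 higher. These were the small MAF partners Maff (-0.42 ± 0.13 SE, limma adjusted p = 0.293) and Mafg (-0.33 ± 0.12, adjusted p = 0.32) and the autophagy receptor Sqstm1 (-0.27 ± 0.10, adjusted p = 0.319). Keap1, named after its values were seen, stood at 3.25 to 3.39 on Sham 2 to 4 and at 3.04 to 3.39 on TAC, a difference of -0.02. With Sham 1, Maff was at -0.21 with an interval of -0.70 to 0.27, and none of the 9 had groups without overlap.

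Among 16 tested of 17 other NRF2 targets the median was -0.17, 6 were lower and 0 higher at an unadjusted p under 0.05, and 8 were lower without overlap, against 12.5% of all genes. Srxn1, which repairs overoxidized peroxiredoxins, stood at 3.79, 4.14 and 3.97 on Sham 2 to 4 and at 3.34, 3.53, 3.62 and 3.57 on TAC 1 to 4 (-0.45 ± 0.12 SE, limma adjusted p = 0.226). Prdx1, a cytosolic peroxiredoxin, differed by -0.32 ± 0.09 (adjusted p = 0.243), the epoxide hydrolase Ephx1 by -0.35 ± 0.11 (adjusted p = 0.279) and the glutathione S-transferase Gsta4 by -0.53 ± 0.17 (adjusted p = 0.286). With Sham 1 included, 5 of the 16 were lower without overlap, against 6.51% of all genes. Slc7a11, the cystine carrier, was not well above background on enough arrays to be tested.

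The list of NADPH supply, which provides the electrons for glutathione and thioredoxin reduction, had the lowest median of the lists, -0.78 over 7 tested of 8 genes, with 5 lower and 1 higher at an unadjusted p under 0.05. Pgd, of the pentose phosphate pathway, stood at 5.08, 5.57 and 5.30 on Sham 2 to 4, at 4.75 on Sham 1, and at 3.63, 4.33, 4.14 and 4.12 on TAC 1 to 4. All TAC arrays were below all Sham arrays, and the difference was -1.26, or 0.417 of the Sham intensity (limma adjusted p = 0.169). G6pdx, the entry enzyme of the same pathway, differed by -0.66 (adjusted p = 0.169), malic enzyme Me1 by -1.89 (adjusted p = 0.174) and Taldo1, also of the pentose phosphate pathway, by -0.78 (adjusted p = 0.209). Pgd, G6pdx, Me1 and Taldo1 kept their groups without overlap with Sham 1 included. Me1, G6pdx and Pgd also serve fatty acid synthesis, which uses the same NADPH. The 1 gene of the list that was higher, named after its values were seen, was the mitochondrial isocitrate dehydrogenase Idh2, at 7.67 to 7.85 on Sham 2 to 4 and at 8.0 to 8.06 on TAC (0.28, adjusted p = 0.257).

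The list of glutathione synthesis and use had a median of -0.04 over 13 genes, the same as that of all genes tested, with 2 higher and 0 lower at an unadjusted p under 0.05. Gpx3, the secreted glutathione peroxidase, stood at 7.76, 7.55 and 7.70 on Sham 2 to 4, at 7.96 on Sham 1, and at 8.50, 8.21, 8.26 and 8.03 on TAC 1 to 4 (0.58 ± 0.12 SE, limma adjusted p = 0.174). Gss, glutathione synthetase, which follows Gclc and Gclm in the pathway, differed by 0.29 ± 0.09 (adjusted p = 0.275). Both had all TAC arrays above all 4 Sham arrays.

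In the list of thioredoxins, peroxiredoxins and repair, 2 of 12 were lower and 0 higher at an unadjusted p under 0.05, with a median of -0.06. They were Txnrd2, the mitochondrial thioredoxin reductase (-0.42 ± 0.15 SE, limma adjusted p = 0.312), and the methionine sulfoxide reductase Msra (-0.36 ± 0.13, adjusted p = 0.32). Neither had groups without overlap once Sham 1 was included. Prdx4, a peroxiredoxin of the endoplasmic reticulum named after its values were seen, stood at 1.53 to 1.57 on Sham 2 to 4, at 1.52 on Sham 1 and at 1.61 to 1.8 on TAC, higher without overlap in both sets of arrays (0.19 ± 0.08, adjusted p = 0.384). Of 8 tested of 9 genes of superoxide metabolism, 1 was lower, the extracellular dismutase Sod3 (-0.28 ± 0.12, adjusted p = 0.368), and the list's median was 0.03. The list of haem breakdown and metallothioneins also held genes of haem synthesis and iron export. Of its 7 genes, 3 were lower and 0 higher, with a median of -0.18. The lower ones were Mt2, Mt1 and the haem synthesis enzyme Fech. The haem breakdown genes Hmox2 (0.003) and Blvra (-0.073), named after their values were seen, differed little. Mt2, a metal-binding protein, stood at 7.74, 8.07 and 8.17 on Sham 2 to 4, at 7.54 on Sham 1, and at 6.90, 7.41, 7.03 and 7.06 on TAC 1 to 4 (-0.90 ± 0.16, adjusted p = 0.169). The groups did not overlap with or without Sham 1. Mt1 differed by -0.42 (adjusted p = 0.295) and ferrochelatase, Fech, by -0.24 (adjusted p = 0.32).

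**Figure D3:**
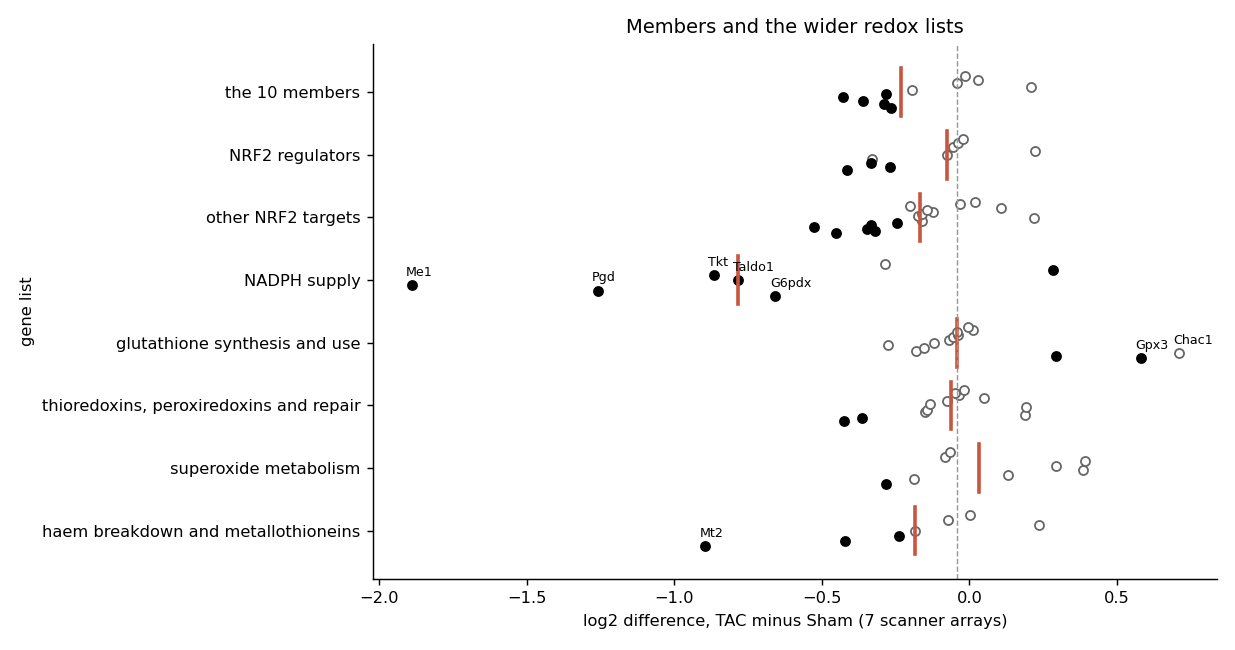
Log2 difference of TAC minus Sham (x axis, 7 scanner arrays) for each tested gene of the members and of the 7 redox lists. Filled points have an unadjusted p under 0.05, red bars are list medians and the dashed line is the median of all genes tested, -0.04. The NADPH supply list lies farthest to the left with a median of -0.78, while the members lie at a median of -0.23 and glutathione synthesis and use at -0.04.

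Markers of the cells in the tissue moved with some arrays. As sums of intensity relative to the 75th percentile, the 12 brown adipocyte markers ranged from 5583 to 6744 on the Sham arrays and from 4497 to 5919 on the TAC arrays, lowest on TAC 1, and 10 of 12 were lower after TAC by sign, as were 8683 of the 14989 genes tested. At an unadjusted p under 0.05, 2 of the 12 were lower, Ucp1 (-0.63, limma adjusted p = 0.309) and the lipid droplet protein Plin1 (-0.36, adjusted p = 0.353), both named after their values were seen. The groups did not overlap, with 7 or 8 arrays, for Ucp1 and for Elovl3, also named after its values were seen (-2.50, interval -5.08 to 0.08). Of all genes, 12.5% were lower without overlap with 7 arrays and 6.51% with 8. The 12 macrophage markers summed to 54.1 to 60.4 on Sham and to 44.6 to 53.0 on TAC 2 to 4, with 106 on TAC 1, and 11 of the 12 were well above background on all 7 arrays. Every macrophage marker was highest on TAC 1 except Cd163, the dimmest, which was lowest there at -4.40. Among the TAC arrays, TAC 1 was the lowest for 6 of the 10 members, against 45.1% of all genes tested. These were Nfe2l2, Gclc, Gclm, Sod1, Sod2 and Cat. It was the highest for 1 member, Hmox1, against 27.1% of all genes. The 10 skeletal muscle markers summed to 46.0 to 174 on Sham and to 57.0 to 264 on TAC, and all 10 were higher after TAC by sign with none at an unadjusted p under 0.05. Of the endothelial markers, 2 of 6 were higher at an unadjusted p under 0.05, against 3.44% of all genes. These were Emcn (0.38, limma adjusted p = 0.291) and Tie1 (0.32, adjusted p = 0.334), named after their values were seen. Kdr, Tek, Pecam1 and Cdh5 differed by -0.078, 0.001, 0.045 and 0.096. The mean of the 5 lymphocyte markers tested was 0.78 above Sham 2 to 4 on TAC 1, 0.43 above it on Sham 1, and between -0.40 and -0.11 on TAC 2 to 4. The sums of the remaining lists, in which the brightest genes weigh most, overlapped between the groups, at 9.83 to 11.2 on Sham and 9.56 to 10.6 on TAC for lymphocyte, 417 to 1070 and 505 to 827 for erythroid, 37.8 to 40.5 and 38.5 to 41.0 for endothelial, and 28.1 to 64.0 and 27.2 to 44.9 for white adipocyte genes. Of the 6 white adipocyte markers, 4 were well above background on all 7 arrays, and the brightest was Retn at a mean of 4.88. Hoxc9, the dimmest, was not well above background on any array. The part of these cells in the members' values was not tested.

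**Figure D4:**
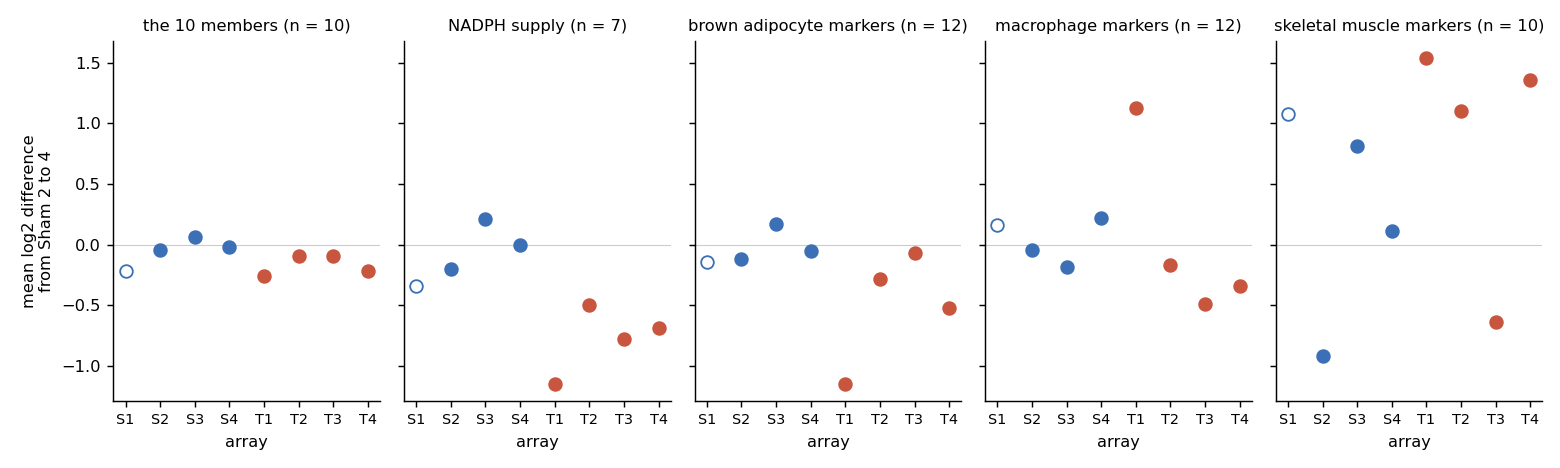
Mean log2 difference from Sham replicates 2 to 4 (y axis) on each array for the members, the NADPH supply list and the brown adipocyte, macrophage and skeletal muscle markers. S1 to S4 (blue) are Sham and T1 to T4 (red) TAC, and the open point is Sham replicate 1 from the authors' table. The members lie between -0.26 and 0.06 on all arrays, the macrophage markers reach 1.13 on T1 alone, and the NADPH supply list is lower on all 4 TAC arrays (-1.15 to -0.50) than on Sham (-0.34 to 0.21).

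Under 22 ways of processing the arrays, the 10 members gave 220 log2 differences, of which 209 kept the direction given above and 11 reversed, all 11 of Hmox1 or Gclc. No member passed an adjusted p of 0.05 under any of them. Nfe2l2 ranged from -0.36 to -0.08, Gclm from -0.50 to -0.23, Cat from -0.40 to -0.22, Sod2 from -0.35 to -0.16 and Prdx3 from -0.29 to -0.17. Under quantile normalization, which gives all arrays the same distribution of intensities, the members' median was -0.11.

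**Figure D5:**
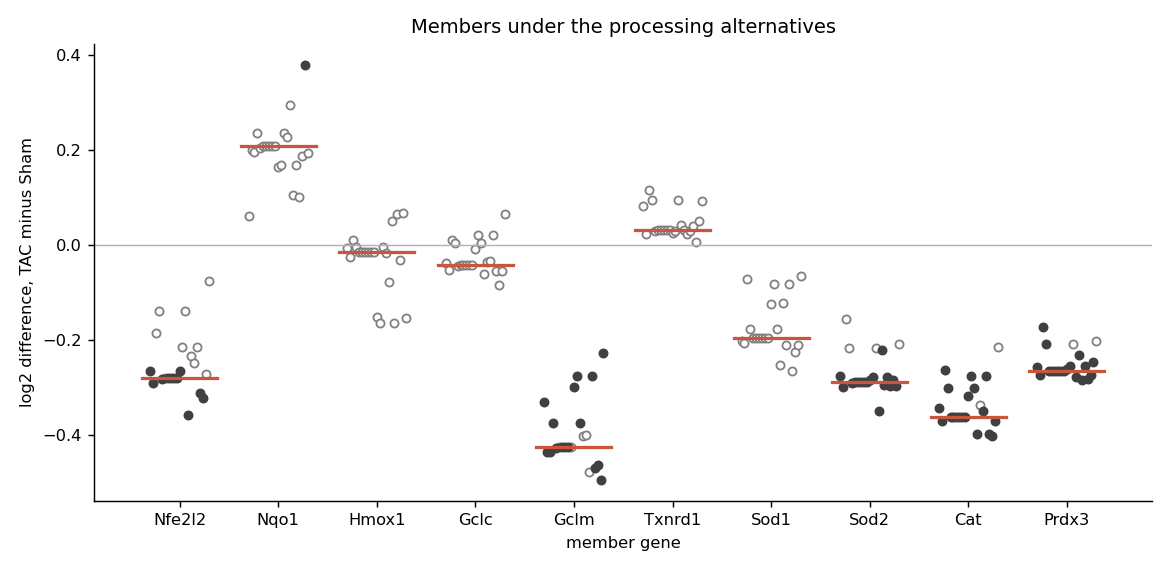
Log2 difference of TAC minus Sham (y axis) of each member under the processing alternatives, 1 point each, filled where the unadjusted p was under 0.05. Red bars are the values given in the text. Nfe2l2, Gclm, Sod1, Sod2, Cat and Prdx3 lie below 0 and Nqo1 and Txnrd1 above 0 under every alternative shown, while Hmox1 and Gclc lie on both sides.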

How the data were processed

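Total RNA of BAT was labelled with Cy3 and hybridized to one-colour Agilent arrays, 1 per mouse. Per the labels, the authors extracted the spots with Agilent Feature Extraction 10.7.1.1. The deposited scanner values of 7 arrays are linear intensities, background-subtracted and not scaled between arrays, and a second deposited table gives 1 intensity per probe for each of the 8 arrays. Its making is not given in the sources used here. On each of the 7 shared arrays at least 99.8% of the probes compared kept 1 ratio to the scanner intensity within 1%, and that ratio was set by the array's 75th percentile.

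From 59305 spots that are not controls, outlier spots were left out (134 to 191 per array). Spots of 1 probe were averaged as log2 intensity, and the 75th percentile over probes was subtracted. Probes were tested with limma 3.58.1 in R 4.3.3 if they were well above background on 3 or more of the 7 arrays and had 2 or more measured arrays per group, without a replicate block and with Benjamini-Hochberg adjustment over 33359 probes, and the fit was tested on simulated data. The p-values printed above come from this test and are two-sided. They set a difference against the spread between mice, which limma shares in part over all probes. Counts for other sets of arrays or other processing come from the fit of that setting. The number of arrays limits the precision, and 54.5% to 64.3% of spots per array were well above background. Probes were named through RefSeq accessions (GRCm38.p6 gene table), which named 28026 of 55681 probes. The brightest probe stands for a gene.

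The members, lists and tests were chosen with earlier results of these data known. The genes named are all members, up to 4 genes of each pathway list at an unadjusted p under 0.05, the brightest and dimmest markers, and the 3 genes most like Nfe2l2 and Hmox1. Not every marker that this rule gives is reported. Alternatives were the authors' table, quantile normalization, median centring, background correction by normexp (offset 50), other filters on dim probes, outlier spots kept, an intensity trend, the methods' t-test, array weights, a block for the replicate number, leaving out each array, and the mean of a gene's probes.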

Additional observations from a re-analysis of the deposited data

Results flagged for a closer look

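In 24 groups of 4 arrays (each member probe in TAC and in the authors' table of Sham), a lone array was looked for by its gap to the nearest other array as a share of the group's range, and 3 groups had a gap above Dixon's 95% critical value, where chance gives about 1 in 20. For Gclm in TAC the gap was 0.855, with TAC replicate 1 at -0.95 and the others at -0.39 to -0.29. For the dimmer probe of Cat in TAC it was 0.834, with TAC replicate 1 at 1.57 and the others at 2.11 to 2.22. For Txnrd1 in Sham it was 0.858, with Sham replicate 1 at 3.30 and the others at 3.54 to 3.58.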

How the results depend on the processing

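The number of probes past the adjusted threshold was 0 as reported, with 1276 higher and 3204 lower at an unadjusted p under 0.05. It was 1 lower with normexp background correction, 1 lower with the authors' table of the same 7 arrays and 2 lower with array weights. Leaving out 1 array gave 0 to 6 higher and 0 to 1 lower, both highest without TAC replicate 4. Without Sham replicate 3 the unadjusted counts were 736 and 1864. Members past the adjusted threshold were 0 under all alternatives, as were genes of the pathway lists, and the 19 pathway genes named by the rule kept their direction in all 399 values. The members' median moved to -0.11 with quantile normalization, -0.16 with the table of 8 arrays and -0.12 with that table without TAC replicate 1, and lay between -0.27 and -0.17 when 1 array was left out. Directions reversed for Hmox1 with quantile normalization (0.01), and with the mean of its probes (0.031), and without Sham replicate 4 (0.05), TAC replicate 2 (0.066) or TAC replicate 4 (0.068), within a range of -0.165 to 0.068 when 1 array was left out, and for Gclc with quantile normalization (0.01), the table of 8 arrays (0.003), that table without TAC replicate 1 (0.066), and without TAC replicate 1 (0.021), within a range of -0.084 to 0.021 when 1 array was left out. The cause was not tested. Pairing by replicate number was not seen for numbers 2 to 4, where deviations of same-numbered arrays correlated at 0.001, -0.025 and -0.021. In the authors' table they correlated at 0.269, 0.02, 0.057 and 0.019 for numbers 1 to 4, of which number 1 was the only one above 0.1. Whether the arrays of number 1 form a pair was not tested. With the replicate block 4 members were lower at an unadjusted p under 0.05 over 7 arrays (7.57% of all genes) and 2 over 8 arrays (9.55%), against 5 and 3 without it, 0 passed the adjusted threshold, and Gclc was at 0.021 and 0.003. With 3 or 4 arrays a group, differences of the size seen here did not pass adjustment over all probes.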
